A study of Homo sapiens with 12 samples.

Results

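The human mitochondrial genome encodes 37 genes, and all of them were found among the 59427 gene symbols of the deposited table as the rows whose symbol starts with MT-. They fall into 3 classes: 13 protein-coding genes, 2 ribosomal RNA (rRNA) genes and 22 transfer RNA (tRNA) genes. Their RNA was measured in 4 lines that model stages of human breast cancer and share an epithelial origin, the MCF10 series. MCF10A is immortalised and non-tumorigenic and is called normal in the study, MCF10AT1 was transformed with HRAS G12V, MCF10DCIS is the ductal carcinoma in situ stage and MCF10CA1a the metastatic stage. All 3 derived lines descend from MCF10A, the carcinoma lines MCF10DCIS and MCF10CA1a by way of the HRAS-transformed cells, each stage is represented by a single line, and all lines grew in the same DMEM:F12 medium, with horse serum, EGF, insulin, hydrocortisone and cholera toxin. The labels give 3 libraries per line, 12 in all. The values analysed here are the authors' means over the libraries of a line in TPM, a unit scaled to gene length and to the sum over all genes. With means alone, no value carries an SD, the replicate spread behind a difference is unknown, and no p-value is given. Where 4 values follow each other, they stand in the order of the stages, MCF10A first, then MCF10AT1, MCF10DCIS and MCF10CA1a.

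Mitochondrial DNA is transcribed in long stretches from both of its strands, named heavy and light. The primary transcripts are cut into separate RNAs, largely at the tRNAs that lie between the other genes, and LRPPRC and SLIRP then bind and stabilise the mRNAs. The mRNAs encode core subunits of respiratory complexes I, III and IV and of ATP synthase, which are completed by subunits made in the nucleus, and the rRNAs and tRNAs serve their translation on mitochondrial ribosomes. A difference in level can come from more mitochondrial genomes per cell, more RNA per genome or a different makeup of the culture, and in bulk RNA these cannot be told apart.

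The genes lie on chromosome M of GRCh38, the build hg38 denotes, between positions 577 and 16023, and 37 of 37 were matched by symbol to GENCODE release 29. On the plus strand lie 12 of the 13 mRNA genes, both rRNA genes and 14 tRNA genes. MT-ND6 and 8 tRNA genes lie on the minus strand. The mRNA genes are packed with hardly any spacing, and 2 pairs overlap by more than a single base. This matters for their counts because a read inside an overlap belongs to both genes. MT-ATP6 and MT-CO3 also share a single base, at position 9207. MT-ATP8 and MT-ATP6, both coding for ATP synthase subunits, share 46 bases, shown here in capitals in the end of the first and the start of the second (GENCODE 29, plus strand, chrM:8512-8572 and chrM:8527-8587).
MT-ATP8: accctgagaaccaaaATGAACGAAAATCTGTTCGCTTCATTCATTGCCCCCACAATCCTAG
MT-ATP6: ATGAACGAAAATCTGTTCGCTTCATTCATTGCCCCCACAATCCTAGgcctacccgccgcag
MT-ND4L and MT-ND4, both coding for complex I subunits, share 7 bases, again in capitals (chrM:10737-10766 and chrM:10760-10789, plus strand).
MT-ND4L: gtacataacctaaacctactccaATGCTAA
MT-ND4: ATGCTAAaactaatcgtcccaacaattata

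In 6 of the 13 mRNA genes (MT-ND1, MT-ND2, MT-CO3, MT-ND3, MT-ND4 and MT-CYB) the annotated sequence stops inside a codon, and it is known that the stop codon of such mRNAs is completed by the poly(A) tail. The ends of MT-CYB (chrM:15858-15887) and MT-ND1 (chrM:4233-4262) show this on the plus strand, with the incomplete stop codon in capitals.
MT-CYB: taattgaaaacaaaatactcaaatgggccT
MT-ND1: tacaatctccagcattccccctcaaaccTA
Levels did not separate along this feature: the genes with an incomplete stop codon included MT-CO3, among the 3 most abundant mRNAs in each line, and MT-ND3, which ranked 12 or 13 of 13.

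The libraries as a whole bear on every value below, because TPM of all genes add up to 1000000 in each line. Structural and small non-coding RNAs held between 57.6% and 66.0% of the TPM, most of all in MCF10DCIS, and the median log2 difference of all 13108 genes tested was -0.38 in MCF10DCIS against MCF10A, -0.066 in MCF10AT1 and -0.074 in MCF10CA1a. Values are therefore also given as rescaled TPM, relative to the genes outside the structural and small RNAs, the ribosomal protein genes and the mitochondrial genome, and as shares within the mitochondrial mRNAs, which scaling to nuclear RNA does not move. HRAS was 50.8, 126, 276 and 312 TPM. All 10 breast epithelial markers examined reached 1 TPM in the 3 derived lines and 9 did in MCF10A, with EPCAM between 37.6 and 148 TPM, CDH1 between 21.3 and 149 TPM and KRT5 between 126 and 768 TPM. Of 15 markers of fibroblasts, endothelium and leukocytes, 12 stayed under 1 TPM in every line, among them COL1A2, COL3A1, CDH5 and PTPRC. The summed levels were 0.818 to 3.55 TPM for fibroblasts, 0.936 to 4.75 TPM for endothelium and 2.89 to 6.57 TPM for leukocytes, against at least 2285 TPM for the epithelial list.

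The 3 classes were compared first. The mRNAs held nearly all of the mitochondrial signal, with 99.3%, 99.2%, 99.5% and 98.7% of the mitochondrially encoded TPM. The rRNAs held the rest, 0.656%, 0.831%, 0.472% and 1.30%, the largest part in MCF10CA1a. The tRNAs were listed at 0 throughout. The summed mRNA level was 10059, 8509, 6714 and 8980 TPM. As a share of all TPM the class thus ran from 0.671% in MCF10DCIS to 1.01% in MCF10A. Against the TPM of the remaining nuclear genes (the denominator of rescaled TPM), the mRNAs came to 2.92%, 2.70%, 2.52% and 2.88%. On that scale the lines lay closer together. On both scales MCF10A was highest and MCF10DCIS lowest.

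All 22 mitochondrial tRNA genes (MT-TA, MT-TC, MT-TD, MT-TE, MT-TF, MT-TG, MT-TH, MT-TI, MT-TK, MT-TL1, MT-TL2, MT-TM, MT-TN, MT-TP, MT-TQ, MT-TR, MT-TS1, MT-TS2, MT-TT, MT-TV, MT-TW and MT-TY) were listed at 0 TPM in all 4 lines. They carry the amino acids for mitochondrial translation, which every respiring cell needs, so a listed 0 here may be a failed estimate and gives no level. They are also among the shortest genes of the annotation, from 59 nt for MT-TS2 to 75 nt for MT-TL1. MT-TS2, which decodes serine and is known for lacking the D-arm of other tRNAs, is shown to give the scale of these genes (chrM:12207-12265, plus strand).
MT-TS2: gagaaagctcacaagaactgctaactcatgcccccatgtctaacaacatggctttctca
Of the 946 other gene symbols whose longest GENCODE transcript is 59 to 75 nt, 0 were above 0 TPM in any line. Among symbols of 76 to 100 nt 2 of 1426 were above 0, and among those above 100 and up to 150 nt 14 of 2527 were. Above 150 and up to 200 nt the share was 8.76%, above 250 and up to 300 nt 22.5%, and above 1000 nt 84.2%. Short RNAs that every cell uses were listed at 0 as well, including the spliceosomal RNAs RNU6-1 (107 nt), RNU4-1 (141 nt) and RNU2-1 (191 nt) and the Y RNA gene RNY1 (113 nt); these examples were chosen after their values were seen. In contrast, RMRP (268 nt), the RNA of a ribonucleoprotein that processes rRNA, stood between 40463 and 71337 TPM. The part of gene length in the listed zeros was not tested beyond these counts.

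**Figure D1:**
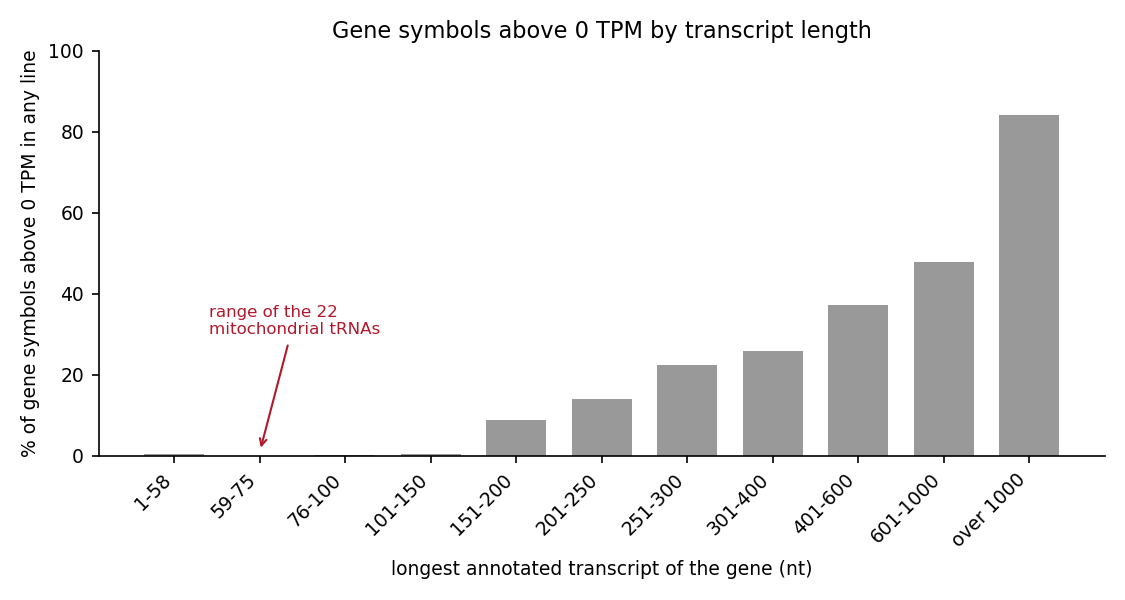
Share of gene symbols above 0 TPM in at least 1 of the 4 lines (vertical axis, %) by the length of the longest GENCODE 29 transcript (horizontal axis, nt). In the range of 59 to 75 nt that holds the 22 mitochondrial tRNAs the share was 0, and it rose to 84.2% above 1000 nt.

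Both rRNAs were far below the mRNAs. MT-RNR1, the small-subunit rRNA of the mitochondrial ribosome (chrM:648-1601), was 40.8, 44.95, 18.5 and 70.4 TPM. MT-RNR2, the large-subunit rRNA (chrM:1671-3229), was 25.6, 26.4, 13.3 and 48.2 TPM. Both were lowest in MCF10DCIS and highest in MCF10CA1a, while MCF10A and MCF10AT1 lay close together in between. MT-RNR1 was above MT-RNR2 in every line, by a ratio of 1.59, 1.70, 1.39 and 1.46. The mean over the mRNAs exceeded the mean over the rRNAs 23.3-, 18.4-, 32.4- and 11.7-fold, least in MCF10CA1a. Even the lowest mRNA of a line stood above its higher rRNA, by a factor of 1.67 in MCF10AT1 and 5.97 in MCF10DCIS. In mitochondria the rRNAs are known to be more abundant than the mRNAs. No statement was found on whether rRNA was removed or poly(A) RNA selected before library construction, and the labels name total RNA. Structural and small non-coding RNAs held 57.6% to 66.0% of the TPM. Among them RN7SL1 was between 296580 and 417954 TPM and RN7SK between 43321 and 72155 TPM. The part of rRNA removal or poly(A) selection in the mitochondrial rRNA levels was not tested.

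Differences between lines were computed on log2(TPM + 1), the first line named minus the second, and genes that differed by at least 1, a 2-fold difference, are called higher or lower. The 13108 genes with at least 1 TPM in some line entered, among them the 13 mRNAs and 2 rRNAs but none of the tRNAs. The 2 rRNAs gave the largest difference of any class. Between MCF10CA1a and MCF10DCIS they differed by 1.87 (MT-RNR1) and 1.78 (MT-RNR2), and both counted as higher, where 6.03% of all genes did and 1.35% counted as lower. With rescaled TPM the values were 1.69 and 1.61, both still counted, against 6.0% of all genes. The mRNAs in the same comparison were all above 0 but none reached the 2-fold rule, with a median of 0.38 and a range of 0.077 to 0.77, and the median of all genes was 0.30. With rescaled TPM the mRNA median was 0.16, and MT-ND6 and MT-ATP8 had the opposite sign, at -0.15 and -0.026.

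**Figure D2:**
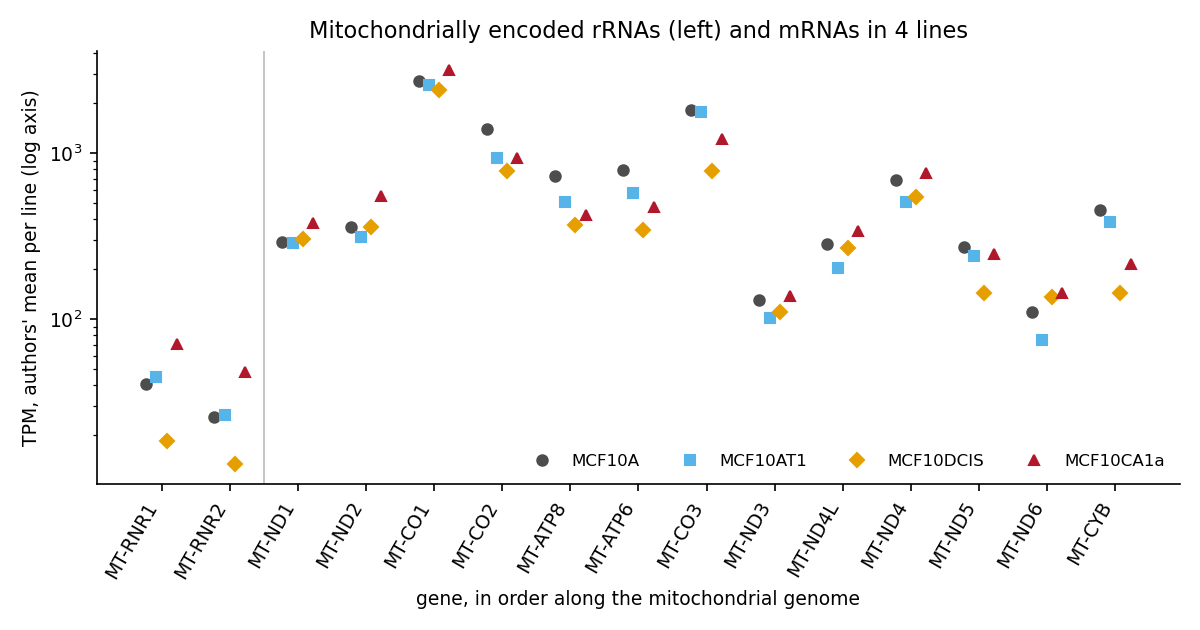
Level of the 2 rRNAs and 13 mRNAs in each line (TPM, the authors' mean, log axis), in the order of the genes along the genome. Both rRNAs lie below all mRNAs of the same line, and MT-CO1 is the highest gene in each of the 4 lines.

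Among the mRNAs, levels spread 24.6-, 34.6-, 21.9- and 23.1-fold, although 12 of them come from the same strand. TPM is per length, so the levels are set beside each other here. For genes that overlap, and with the quantifier not given, a comparison between genes is uncertain by an amount not measured. MT-CO1, the catalytic subunit of complex IV (cytochrome c oxidase), was the most abundant in every line, at 2724, 2599, 2425 and 3161 TPM. It ranked between 8 and 15 among all genes of the table. MT-CO3 and MT-CO2, which encode the other mitochondrial subunits of complex IV, held the next 2 places in all lines. At the bottom stood MT-ND6 and MT-ND3, subunits of complex I, with MT-ND6 last in MCF10A and MCF10AT1 and MT-ND3 last in MCF10DCIS and MCF10CA1a. The order of the 13 levels was most alike between MCF10A and MCF10AT1 (Spearman's rho 0.995 across 13 genes) and between MCF10DCIS and MCF10CA1a (0.978). For the 4 other pairs of lines it was between 0.879 and 0.890. These coefficients describe genes of shared libraries that in part overlap, and they are no test.

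Within the mRNAs the mix of subunits differed between the lines. The 7 complex I genes held 21.3% of the summed mRNA TPM in MCF10A and 20.3% in MCF10AT1, and 27.9% in MCF10DCIS and 28.4% in MCF10CA1a. The single complex III gene, MT-CYB, held 4.53% and 4.50% in the first pair of lines and 2.13% and 2.39% in the second. The ATP synthase genes held 15.2% and 12.8%, and 10.7% and 10.0%. The 3 complex IV genes together stayed between 58.99% and 62.4%. Gene by gene, the shares in MCF10DCIS and MCF10CA1a both exceeded those in MCF10A and MCF10AT1 for 7 genes (MT-ND1, MT-ND2, MT-CO1, MT-ND3, MT-ND4L, MT-ND4 and MT-ND6). Both fell short of them for 4 genes (MT-ATP8, MT-ATP6, MT-CO3 and MT-CYB). For MT-CO2 and MT-ND5 the shares of the 2 pairs of lines overlapped. Shares add up to 100% within a line, so a lower share of some genes raises that of the others. Grouping the genes by complex and the lines by stage was done with these values known.

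**Figure D3:**
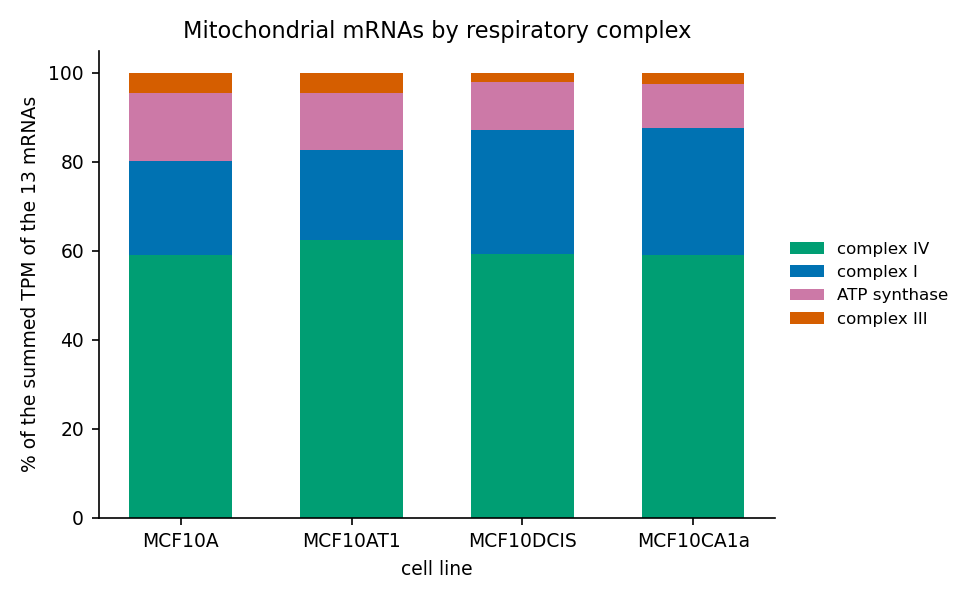
Composition of the mitochondrial mRNAs in each line (bars stacked to 100% of the summed TPM of the 13 mRNAs), by the respiratory complex their protein belongs to. Complex I genes take 21.3% and 20.3% in MCF10A and MCF10AT1 and 27.9% and 28.4% in MCF10DCIS and MCF10CA1a.

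MT-CYB, cytochrome b of complex III (chrM:14747-15887), varied most among the mRNAs. Its level was 456, 383, 143 and 215 TPM, a 3.18-fold range. Both carcinoma lines lay below both other lines. The log2 difference from MCF10A was -0.25, -1.66 and -1.08 in the 3 derived lines, or -0.12, -1.30 and -0.94 with rescaled TPM. Against MCF10AT1 it was -1.41 in MCF10DCIS and -0.83 in MCF10CA1a. In MCF10DCIS MT-CYB thus counted as lower on both scales, and in MCF10CA1a with the deposited but not the rescaled TPM. Its place among the 13 mRNAs moved from 7 in MCF10A and MCF10AT1 to 11 in MCF10DCIS and MCF10CA1a.

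The other genes with lower shares in the carcinoma lines form an unbroken block of the genome, from MT-ATP8 to MT-CO3. MT-CO3 was 1812, 1773, 779 and 1220 TPM. MT-ATP6 was 796, 576, 346 and 477 TPM. MT-ATP8 was 733, 510, 369 and 424 TPM. For each of the 3 genes the carcinoma lines lay below both other lines. MCF10DCIS was the lowest, except that with rescaled TPM MT-ATP8 was slightly lower in MCF10CA1a (-0.64 from MCF10A, against -0.62). The differences from MCF10A in MCF10DCIS were -1.22 for MT-CO3, -1.20 for MT-ATP6 and -0.99 for MT-ATP8, or -0.85, -0.83 and -0.62 with rescaled TPM. In MCF10CA1a they were -0.57, -0.74 and -0.79. MCF10AT1 also stood below MCF10A for MT-ATP6 (-0.46) and MT-ATP8 (-0.52), but differed by -0.032 for MT-CO3, and by 0.097 with rescaled TPM. MT-ATP6 and MT-ATP8, whose shared bases are printed above, kept a ratio between 0.937 and 1.13 in the 4 lines.

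MT-CO2, a complex IV subunit that carries a copper centre, sits just before that block. It was 1397 TPM in MCF10A and 940, 781 and 933 TPM in the derived lines. All 3 derived lines had smaller values than MCF10A, with log2 differences of -0.57, -0.84 and -0.58 (-0.44, -0.47 and -0.44 with rescaled TPM), none of them past the 2-fold rule. MT-CO1, next to it on the map, behaved otherwise: its differences were -0.067, -0.17 and 0.21, and 0.061, 0.20 and 0.36 with rescaled TPM, so that its sign in MCF10AT1 and MCF10DCIS depended on the scale. The ratio of MT-CO1 to MT-CO2 was 1.95, 2.77, 3.11 and 3.39, rising along the stages.

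Among the 7 complex I genes, all but MT-ND5 were lowest in MCF10AT1 and highest in MCF10CA1a with the deposited TPM. MT-ND6 is described with MT-ND5, and the other 5 are given here. MT-ND2 was 360, 315, 358 and 550 TPM, the highest value being that of MCF10CA1a. MT-ND1 was 293, 286, 306 and 378 TPM, and MT-ND4 was 691, 508, 547 and 758 TPM. MT-ND4L was 284, 203, 268 and 338 TPM, and the ratio of MT-ND4 to it was between 2.05 and 2.50 in the 4 lines. The 2 genes overlap, so this is a ratio of listed values and was not read as one between separate RNAs. MT-ND3 varied 1.35-fold, between 102 TPM in MCF10AT1 and 137 TPM in MCF10CA1a. In these 5 genes MCF10AT1 was the lowest line and MCF10CA1a the highest, except that with rescaled TPM MT-ND1 was lowest in MCF10A (MCF10AT1 stood 0.098 above it). The differences from MCF10A lay between -0.34 and 0.07 in MCF10DCIS and between 0.06 and 0.61 in MCF10CA1a, and none was past the 2-fold rule. With rescaled TPM the ranges were 0.03 to 0.43 and 0.21 to 0.75, so that 4 of the 5 (all but MT-ND1) changed sign in MCF10DCIS.

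MT-ND5, the longest mRNA at 1812 nt, was 272, 239, 144 and 246 TPM. MCF10DCIS was the lowest, at -0.91 from MCF10A, or -0.54 with rescaled TPM. MT-ND6 (chrM:14149-14673), the mRNA of the opposite strand, was 111, 75.1, 136 and 144 TPM. It was highest in the carcinoma lines and lowest in MCF10AT1. Its differences from MCF10A were -0.55, 0.30 and 0.38, and from MCF10AT1 0.85 in MCF10DCIS and 0.93 in MCF10CA1a. With rescaled TPM the first of these 2 was 1.10, past the 2-fold rule. On the map of mRNA genes MT-ND6 stands between MT-ND5 and MT-CYB. The ratio of MT-CYB to MT-ND6 was 4.12, 5.10, 1.05 and 1.49, the widest range (4.86-fold) of any 2 neighbouring mRNA genes. The library kit keeps the strand, per the labels, but the strand setting of the counting is not given in the sources used here. If strand was not used, heavy-strand RNA that covers the MT-ND6 region would be counted as MT-ND6.

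**Figure D4:**
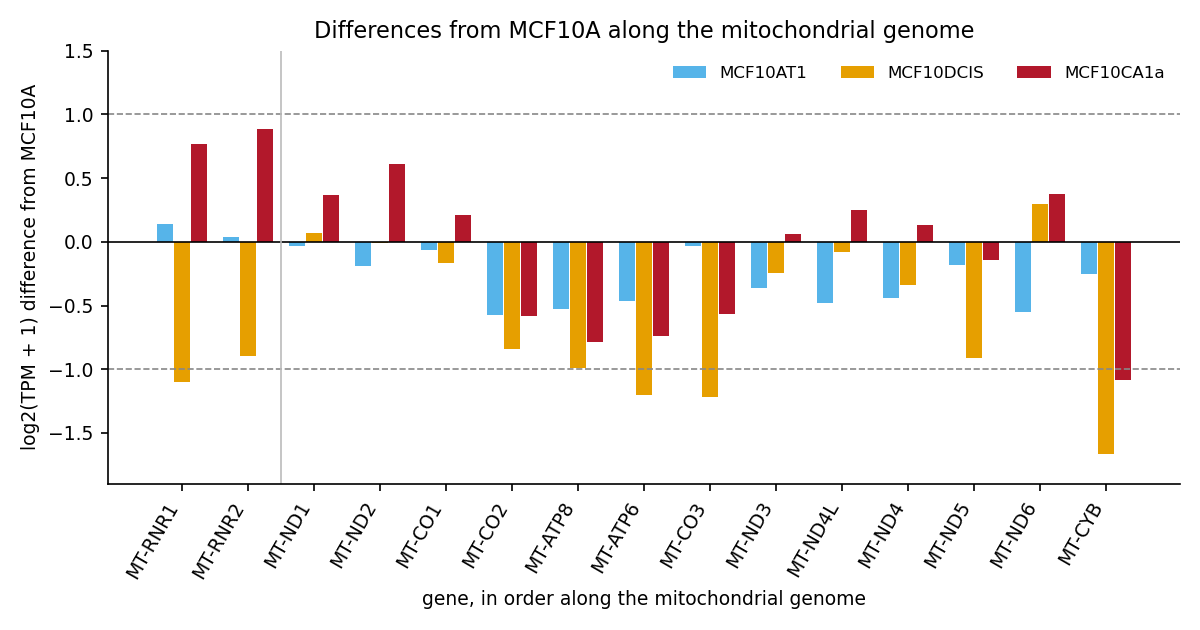
Difference from MCF10A in log2(TPM + 1) for the 3 derived lines, with the 2 rRNAs on the left and the 13 mRNAs in map order. Dashed lines mark the 2-fold rule; in MCF10DCIS MT-RNR1, MT-ATP6, MT-CO3 and MT-CYB lie below the lower line, in MCF10CA1a only MT-CYB does.

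Counted over the 15 genes with values, MCF10DCIS had 4 lower than MCF10A (MT-RNR1, MT-ATP6, MT-CO3 and MT-CYB) and 0 higher. Of all genes tested 14.8% were lower and 3.56% higher in that comparison, and the median of the mRNAs (-0.34) was near that of all genes (-0.38). With rescaled TPM MT-CYB alone was counted, where 10.3% of all genes were. MCF10CA1a had 1 gene lower than MCF10A, MT-CYB, and 0 higher, beside 7.14% and 5.97% of all genes. With rescaled TPM 0 were lower (7.77% of all genes) and MT-RNR2 was higher at 1.04 (9.46%). MCF10AT1 had 0 lower and 0 higher than MCF10A, beside 5.87% and 3.39%. All 13 mRNAs were nevertheless below 0 there, with a median of -0.36 against -0.066 for all genes, and 10 of 13 were with rescaled TPM.

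Pairs without MCF10A gave similar counts. MCF10DCIS had 3 genes lower than MCF10AT1 (MT-RNR1, MT-CO3 and MT-CYB) and 0 higher, beside 7.51% and 3.23% of all genes. With rescaled TPM MT-RNR1 and MT-CYB were lower (7.44%) and MT-ND6 was higher (6.58%). MCF10CA1a had 0 lower and 0 higher than MCF10AT1, beside 3.97% and 6.0%. In that comparison all 7 complex I genes were above 0, with a median of 0.58, while 5 of the 6 other mRNAs were below 0, with a median of -0.27. MT-CO2 was nearest to 0 among these, at -0.011, and 0.0047 with rescaled TPM.

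The gene-to-gene pattern was examined in 2 comparisons that have no line in common, MCF10DCIS against MCF10A and MCF10CA1a against MCF10AT1. Across the 13 mRNAs the log2 differences had a Pearson's r of 0.955 and a Spearman's rho of 0.907. Across all 13108 genes the same coefficients were 0.361 and 0.320. In both comparisons MT-CYB was lowest, followed by MT-CO3, and MT-ND6 was highest. For MCF10CA1a against MCF10A and MCF10DCIS against MCF10AT1 Pearson's r was 0.833 across the 13 mRNAs and 0.360 across all genes. For MCF10AT1 against MCF10A and MCF10CA1a against MCF10DCIS the values were 0.579 and 0.009. Genes of a line share their libraries and, where they overlap, bases, so these are descriptions over 13 linked points.

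**Figure D5:**
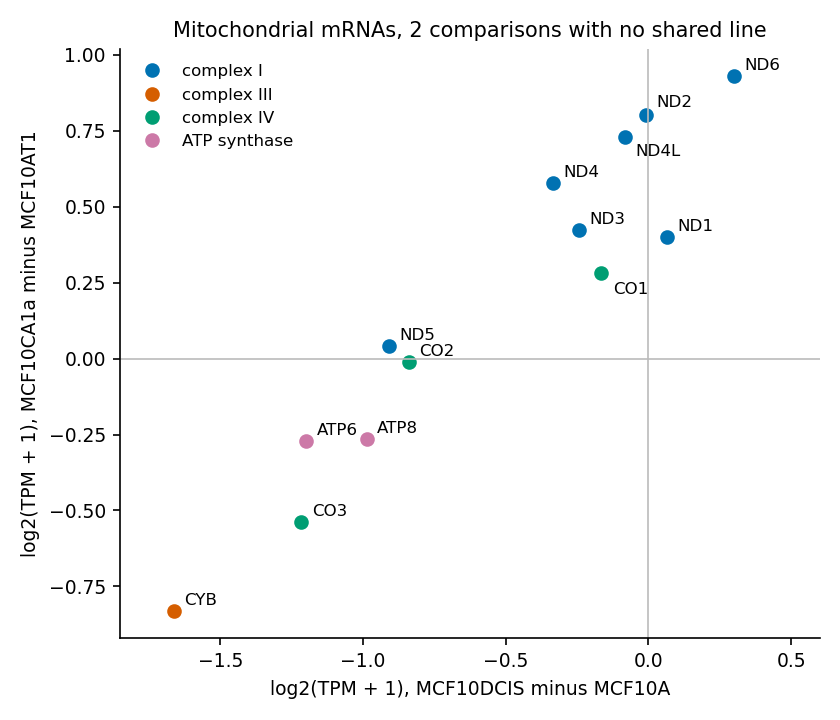
Log2(TPM + 1) difference of the 13 mRNAs in MCF10DCIS against MCF10A (horizontal axis) and MCF10CA1a against MCF10AT1 (vertical axis), coloured by respiratory complex. MT-CYB lies lowest in both (-1.66 and -0.83) and MT-ND6 highest (0.30 and 0.93).

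The differences between MCF10DCIS and MCF10A were set beside simple features of the genes. Spearman's rho across the 13 mRNAs was -0.53 with the level in MCF10AT1 (log2 TPM), -0.29 with position on the map, -0.093 with length and -0.23 with GC content. In MCF10CA1a against MCF10A the coefficients were -0.46, -0.25, 0.093 and -0.12. Of these 4 features the level had the largest coefficient in both comparisons. The order of levels in MCF10AT1 was close to that in MCF10A (Spearman's rho 0.995), the line subtracted in both differences. A negative coefficient with the level can thus be partly built in, and no tendency was read from it. In MCF10AT1 against MCF10A, where all differences were within 0.58, the coefficients were 0.20 with the level in MCF10CA1a, -0.27 with position, 0.61 with length and 0.63 with GC content.

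Copies of mitochondrial genes in the nuclear genome can share reads with the originals. The table lists 415 symbols of such copies, of which 98 were above 0 and 3 reached 1 TPM in some line: MTND2P28, MTATP6P1 and MTCO1P12. These 3 lie within a stretch of chromosome 1 that holds copies of 7 mitochondrial genes in a row (GRCh38, chr1:629062-634922), and they held at least 97.8% of the TPM of all copies in each line. MTND2P28 (chr1:629640-630683) matches MT-ND2 at 98.4% of 1042 aligned bases, with an identical run of up to 266 bases. The 75-base window in which the 2 differ most shows how close they are, with the differing bases in capitals (chrM:4884-4958 and chr1:630054-630128, plus strands).
MT-ND2: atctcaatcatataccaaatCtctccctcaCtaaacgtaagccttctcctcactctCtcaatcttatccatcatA
MTND2P28: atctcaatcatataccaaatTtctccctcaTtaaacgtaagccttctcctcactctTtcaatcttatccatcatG
MTND2P28 was 55.3, 74.9, 8.22 and 1.78 TPM. It was far lower in both carcinoma lines, with log2 differences from MCF10A of 0.43, -2.61 and -4.34. Set against MT-ND2 it came to 15.4%, 23.8%, 2.30% and 0.324% of that gene's TPM. With the 2 values added, MT-ND2 would be 415, 390, 366 and 552 TPM. On this deposited scale MCF10DCIS would be the lowest line instead of MCF10AT1. The sums were not rescaled, and with rescaled TPM MT-ND2 alone stood 0.36 above MCF10A in MCF10DCIS.

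MTATP6P1 (chr1:633696-634376) matches MT-ATP6 at 98.5% of 681 bases, with an identical run of up to 141 bases. The window where they differ most is given in the same way (chrM:8644-8718 and chr1:633813-633887, plus strands).
MT-ATP6: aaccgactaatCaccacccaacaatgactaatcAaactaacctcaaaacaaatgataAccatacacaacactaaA
MTATP6P1: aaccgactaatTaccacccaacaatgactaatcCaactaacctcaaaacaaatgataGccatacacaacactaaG
MTATP6P1 was 119, 69.3, 65.4 and 74.3 TPM. With the deposited TPM it was, like MT-ATP6, highest in MCF10A and lowest in MCF10DCIS. It came to 15%, 12.02%, 18.9% and 15.6% of the TPM of MT-ATP6. With rescaled TPM MTATP6P1 was lowest in MCF10AT1, at -0.65 from MCF10A, against -0.50 in MCF10DCIS and -0.54 in MCF10CA1a. MT-ATP6 stayed lowest in MCF10DCIS on that scale. MTCO1P12 was 12.4, 11.5, 10.1 and 14.1 TPM, or 0.416% to 0.455% of MT-CO1. The other 4 copies of the stretch (MTND1P23, MTCO2P12, MTATP8P1 and MTCO3P12) were at most 0.140 TPM. How reads that fit more than 1 place were assigned is not given in the sources used here, so the values of mitochondrial genes with such copies, and of the copies, are uncertain by an amount not measured here.

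Nuclear genes that make, process, translate or complete the mitochondrial transcripts showed few differences past the 2-fold rule. Without the nuclear copies described above, the lists held 250 tested genes. In MCF10DCIS 12 were lower and 3 higher than in MCF10A (4.8% and 1.2%, beside 14.8% and 3.56% of all genes). In MCF10CA1a 3 were lower and 2 higher (1.2% and 0.8%, beside 7.14% and 5.97%), and in MCF10AT1 0 were lower and 2 higher (0% and 0.8%, beside 5.87% and 3.39%). Scale mattered here: with rescaled TPM 2 were lower and 11 higher in MCF10DCIS (0.8% and 4.4%, beside 10.3% and 7.83%). The transcription list had 0 of 9 genes counted in MCF10AT1 and MCF10CA1a and 1 in MCF10DCIS. That was the termination factor gene MTERF1 (5.38 and 2.05 TPM, -1.06, and -0.93 with rescaled TPM). With rescaled TPM 1 other gene of this list was higher in MCF10DCIS and 0 were lower. The mitochondrial RNA polymerase gene POLRMT was 14, 16, 21.2 and 18.8 TPM. TFAM, which packages mitochondrial DNA and starts its transcription, was 23.3, 24.4, 20.0 and 29.9 TPM, and the initiation factor gene TFB2M 6.17, 7.34, 7.35 and 6.76 TPM. None of these 3 was past the 2-fold rule against MCF10A.

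Of 15 RNA stability and decay genes 0 were counted in any of the 3 comparisons with the deposited TPM. With rescaled TPM 2 were higher in MCF10DCIS (LRPPRC and PNPT1) and 1 in MCF10CA1a (SUPV3L1). LRPPRC was 36.8, 36.8, 57.4 and 58.4 TPM. Both carcinoma lines stood above both other lines, by 0.63 and 0.65 over MCF10A, or 1.00 (past the 2-fold rule) and 0.80 with rescaled TPM. PNPT1, an RNA-degrading enzyme, was 8.96, 9.74, 15 and 14.8 TPM, and SUPV3L1, the helicase it works with, 11.6, 16.3, 14.7 and 22.5 TPM; both were chosen for naming after their values were seen. SLIRP, the partner of LRPPRC, was 120, 154, 122 and 167 TPM. The 21 RNA processing and modification genes had 1 lower in MCF10DCIS, the tRNA-modifying enzyme gene CDK5RAP1 (15.1 and 4.97 TPM, -1.43), and 0 in the other lines. Among 14 replication and nucleoid genes MCF10DCIS had the nuclease gene MGME1 (-1.19, rescaled -0.92) and the ribonucleotide reductase gene RRM2B (-1.22, rescaled -0.95) lower and POLG2, a subunit of the mitochondrial DNA polymerase, higher (4.32 and 10.7 TPM, 1.14). The topoisomerase gene TOP3A was higher in MCF10AT1 (8.26 and 18.5 TPM, 1.07).

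On the side of translation, the 12 factors measured had 0 counted. The 22 genes of aminoacyl-tRNA synthetases, which charge the tRNAs, and of the amidotransferase that completes one of them had 1 lower in MCF10DCIS (GARS1, -1.07, rescaled -0.72) and 1 lower in MCF10CA1a (VARS2, -1.26). Of 78 mitochondrial ribosomal protein genes MCF10DCIS had 4 lower, among them MRPL15 (-1.33), MRPS21 (-1.21) and MRPL49 (-1.03), and MRPS16 higher (1.00). With rescaled TPM 0 of the 78 were lower and 5 higher. MRPS16 was also higher in MCF10CA1a, at 61.2 TPM in MCF10A and 143 TPM. The median of the ribosomal protein list in the 3 derived lines was 0.06, -0.19 and 0.17, beside rRNA medians of 0.088, -0.996 and 0.83. All genes tested had medians of -0.066, -0.38 and -0.074. With rescaled TPM the list medians were 0.19, 0.16 and 0.32, beside rRNA medians of 0.22, -0.66 and 0.98. On that scale the signs in MCF10DCIS were opposite. Of 7 biogenesis regulators tested, MYC was higher in all 3 derived lines (1.31, 1.28 and 1.32) and the remaining 6 were not counted.

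The nuclear subunits of the same complexes had medians near each other. In MCF10DCIS the median difference from MCF10A was -0.31 for 38 complex I subunits, -0.51 for 9 of complex III, -0.34 for 10 of complex IV and -0.32 for 15 of ATP synthase, and in MCF10CA1a it was -0.20, -0.22, -0.28 and -0.23. All genes tested had medians of -0.38 and -0.074 in these 2 lines. With rescaled TPM the nuclear medians were 0.048, -0.14, 0.028 and 0.044 in MCF10DCIS. In MCF10CA1a they were -0.055, -0.084, -0.14 and -0.087. With the deposited TPM the mitochondrial mRNAs had medians of -0.084 for complex I and -1.09 for the other complexes in MCF10DCIS, and of 0.25 and -0.66 in MCF10CA1a. With rescaled TPM these were 0.29 and -0.73 in MCF10DCIS, and 0.40 and -0.52 in MCF10CA1a. Of these nuclear subunits NDUFA5 (-1.18), UQCRB (-1.05) and ATP5MF (-1.59) were lower in MCF10DCIS and NDUFB2 (-1.03) and ATP5MF (-1.08) in MCF10CA1a. With rescaled TPM ATP5MF alone was lower in MCF10DCIS and none in MCF10CA1a, and 1 ATP synthase subunit was higher in MCF10DCIS.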

How the data were processed

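The labels describe stranded libraries (NEB Ultra2 kit) made from total RNA, 3 per line. The authors deposited a table of mean TPM per line for 59427 gene symbols, per the file headers, and each column sums to 1000000. STAR, edgeR and the build hg38 are named, without roles or versions, per the submitters' processing notes. Details of the quantifier, annotation, strand setting, rRNA removal and poly(A) selection were not given in the sources used here. Read depth is unknown, and no library values were analysed, so no test was run.

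Differences were taken on log2(TPM + 1), which understates those of low genes, for the 13108 genes with at least 1 TPM in some line, and called at 1 or more in size. Every sum, share and ratio was computed from the same means. Positions, lengths and sequences came from GENCODE 29 (GRCh38), in which 54529 symbols were found. All 37 mitochondrial genes are named. Named nuclear genes were TFAM, POLRMT, TFB2M, LRPPRC, SLIRP and HRAS, up to 3 genes per list and direction past the 2-fold rule against MCF10A, nuclear copies of at least 1 TPM, and 3 epithelial markers. Other nuclear genes (markers of other cell types, short RNAs, the 4 low copies on chromosome 1, PNPT1 and SUPV3L1) were named outside that rule, after their values were seen. The members and lists were chosen with earlier results of these data known. Alternatives were another pseudocount, other filters, 3 scalings and other ways to sum the classes. The 2-fold rule was tested on copies of the MCF10A values with known folds put in. Median-of-ratios scaling and quantile normalization were tested on multiplied copies of these values. The other calculations were not tested in this way. The software was Python 3.11.15, numpy 2.4.6, pandas 2.3.3, scipy 1.17.1 and Biopython 1.88.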

Additional observations from a re-analysis of the deposited data

How the results depend on the processing

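Among the mitochondrial genes scaling was the choice that moved counts, and over all genes and the nuclear lists the pseudocount did too. In MCF10DCIS against MCF10A the 4 lower mitochondrial genes became 1 with rescaled TPM, 1 with median-of-ratios scaling and 2 with quantile normalization. The 1 lower in MCF10CA1a became 0 under rescaled TPM and 0 under median-of-ratios scaling, and stayed 1 with quantile normalization (MT-CYB, -1.01). The count of higher genes there became 1 with rescaled TPM. Against MCF10AT1 the 3 lower in MCF10DCIS became 1 with median-of-ratios scaling, and MT-ND6 was the 1 higher gene under each of the 3 scalings. MT-CYB in MCF10DCIS against MCF10A and MCF10AT1 kept its call in every alternative run. The mRNA median in MCF10DCIS against MCF10A was 0.033 with rescaled TPM and 0.12 with median-of-ratios scaling, and the rRNA median was -1.04 with a pseudocount of 0.1. These scalings moved the median of all genes in that comparison by 0.29 to 0.38, and its counts of lower and higher genes from 1937 and 467 to 1351 and 1027 (rescaled), 865 and 838 (median-of-ratios) or 814 and 848 (quantile). A pseudocount of 0.1 gave 2841 and 768 there, and 1211 and 758 in place of 770 and 444 in MCF10AT1. Genes of the nuclear lists, here with the 3 tested nuclear copies (253 genes), that were lower in MCF10DCIS went from 13 to 21 with a pseudocount of 0.1 and to 3, 3 and 2 under the 3 scalings, and higher ones from 3 to 11, 14 and 13. In MCF10CA1a lower ones went from 4 to 2 (rescaled) and 2 (median-of-ratios), and higher ones from 2 to 4 with a pseudocount of 0.1 and to 6, 5 and 5 under the scalings. Leaving out the copies, an alternative added after seeing the data, turned the 13 to 12 and the 4 to 3, since MTND2P28 was lower in both lines. The cause was not tested. Without structural and small RNAs in the denominator the mRNA share was 2.37%, 2.12%, 1.97% and 2.23%, and the rRNA share 0.0157%, 0.0178%, 0.00936% and 0.0295%. Without the most abundant gene of the class these shares of all TPM were 0.734%, 0.591%, 0.429% and 0.582%, and 0.00256%, 0.00264%, 0.00133% and 0.00482%. By medians the mRNA to rRNA ratio was 13.7, 10.7, 21.7 and 7.16. Without the 4 genes of the 2 larger overlaps complex I held 15.4%, 15.2%, 20.4% and 20.8%. Adding the nuclear copies to the deposited TPM, chosen after seeing the data, turned MT-ND2 in MCF10DCIS against MCF10AT1 to -0.091.

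Means per line set the limits: replicate spread and counting error are unknown. No paired analysis was possible because the table holds 1 mean per line and no library columns, and leaving out single libraries was not run for the same reason. The mean and the median over light-strand tRNAs are both 0 in each line.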
